A study of Danio rerio with 12 samples.

Results

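Zebrafish larvae with a mutant as3mt gene were compared with wild-type larvae at 5 days of age, neither group having received arsenic. The comparison takes all libraries whose sample titles name the as3mt mutant or the wild type at 0 mM inorganic arsenic (iAs), which is 6 of the 12 libraries of the series, 3 per genotype. The untreated mutants came from crosses among homozygous as3mt mutant fish of the second filial generation, in the WT-ABNYU background. They carry a CRISPR allele with an 8 bp deletion in exon 3 that brings in a premature stop codon. The untreated wild types were of the WT-TAB14 strain. Both groups were raised from natural spawnings, 20 embryos to a well of 10 mL, and each library holds RNA from a pool of 10 whole larvae taken at about 119 hours post-fertilization. The other 6 libraries came from larvae given 1 mM iAs from 6 hours onward, 3 of mutant and 3 of wild type. Their levels are given only where the same genotype difference is looked at with iAs. They were fitted together with the untreated libraries, so they also enter the gene filter and the estimate of spread behind each untreated p-value. The mutant is 1 allele in 1 line, and mutant and wild type also differ in strain, so that genotype and strain cannot be told apart in any value below.

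As3mt is arsenite methyltransferase, an enzyme best known from the liver that adds methyl groups to inorganic arsenic and so changes how it is held and excreted. The methyl groups come from S-adenosylmethionine, which is made from methionine by the MAT enzymes. The methionine and folate cycles supply it, and many other methyltransferases draw on it. In larvae that were given no arsenic, the comparison asks which transcripts differ between the lines before any exposure.

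The libraries held 28909467 to 43759270 counts, and 23096 of the 32105 gene IDs in the files had enough counts to be tested. The 10 most abundant genes took 8.80 to 9.90% of a library. Along the first principal component of the untreated libraries, which carried 59.7% of the variance, mutants lay between 38.5 and 40.2 and wild types between -41.6 and -38.4. Wild-type replicate 3 stood apart on the second component (11.4% of the variance), at 31.6 against -16.7 and -16.3 for the other wild types. Mutant replicate 3 differed most from its own group, with a chi-square over degrees of freedom of 14.3 and 11.6 against the other mutants, where these differed from each other by 5.62 and the wild types by 5.18 to 5.68. Genes of many organs were present, as the label of whole larvae asks. The summed level of 57 skeletal muscle genes was 91011 to 94930 CPM (counts scaled to library size, as edgeR gives them) in mutants and 90811 to 100735 CPM in wild types, and that of 51 hepatocyte genes was 14553 to 16154 CPM in mutants and 13976 to 15453 CPM in wild types. Mitochondrial genes took 4.39 ± 0.091% of the counts in mutants and 4.53 ± 0.077% in wild types (SD, n = 3 each).

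The untreated genotypes differed at 3110 genes, which is 13.5% of those tested. A gene is called here when its Benjamini-Hochberg adjusted p from edgeR's quasi-likelihood test lies under 0.05. Of the calls, 1534 were higher (6.64%) and 1576 lower (6.82%) in mutants, and the median log2 fold change over all tested genes was 0.0007. Most differences were small: 1763 called genes lay under 1.5-fold, and the median size of a called log2 fold change was 0.50. A difference of 2-fold or more was called for 794 genes (3.44%), of which 411 were higher and 383 lower. The libraries of the genotypes did not overlap for 3057 of the 3110 calls. A call itself favours such a gap, and the share over all tested genes was not computed, so this count adds no evidence. Calls held between 2097 and 2771 genes when any 1 of the 6 libraries was left out, 1022 higher and 1075 lower at the fewest, without mutant replicate 2. P-values here weigh differences against the spread within the 4 groups of all 12 libraries, treated ones included. The labels do not state separate clutches for the replicates, so some of that spread may be technical.

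**Figure D1:**
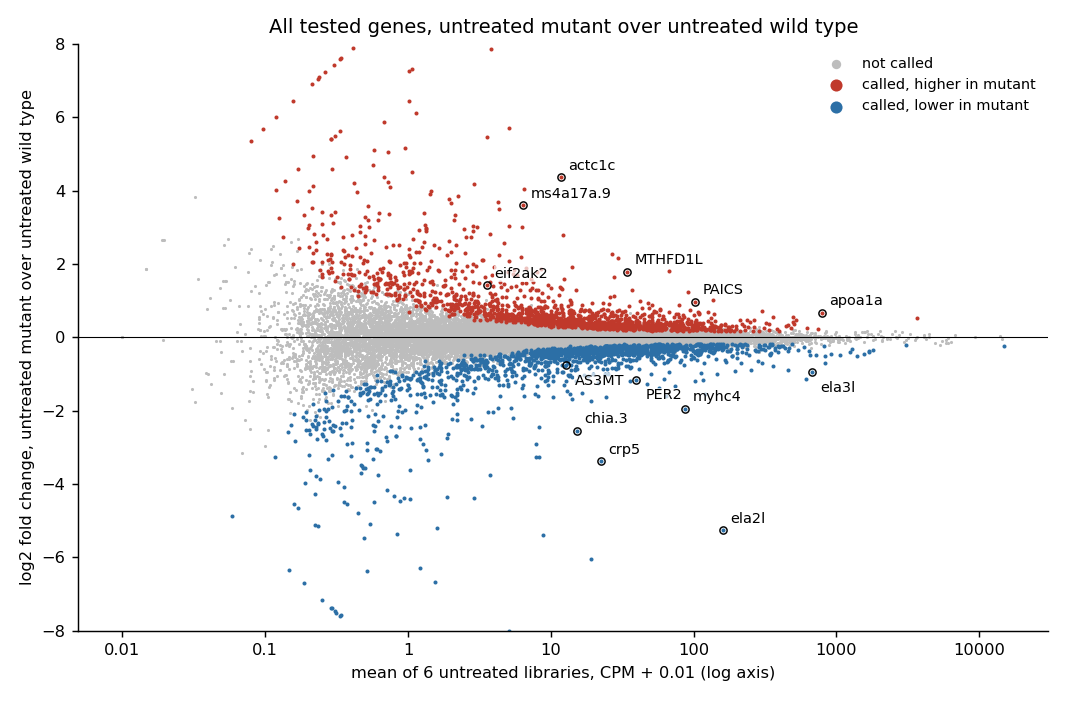
Log2 fold change of untreated mutant over untreated wild type (y axis) against the mean of the 6 untreated libraries in CPM, on a log axis. Red points are called genes higher in mutants, blue points are called genes lower in mutants, grey points are not called, and 29 genes with a fitted change beyond 8 on the log2 scale lie outside the axis. Calls fill both directions, large changes lie mostly among genes of low level, and ela2l stands alone among abundant genes.

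The large differences sat mostly in genes without an established name. Of 3254 tested genes with a clone or locus name, 332 (10.203%) were called at 2-fold or more, and of 1875 IDs with no symbol 192 (10.24%) were. Among 17967 genes with a gene name the count was 270 (1.503%). The classes also differed in level, with a median of 2.02 CPM for clone or locus names, 1.59 CPM for IDs with no symbol and 14.6 CPM for gene names. The part of level, and of reads shared by near-identical genes, in these shares was not tested.

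The as3mt transcript (listed as AS3MT, ENSDARG00000027572) was lower in mutants but was not lost. It stood at 9.21, 9.91 and 9.52 CPM in the mutant libraries and at 14.3, 16.8 and 17.2 CPM in the wild-type libraries. All 3 mutants lay below all wild types, a 1.68-fold lower level (log2 fold change -0.75, SE 0.0973, adjusted p = 3.88e-05). Counts cover the whole gene and do not show the deleted bases themselves. Of the 10 nearest genes to as3mt among tested genes placed in the RefSeq gene order, 5 on each side, 1 rose and 2 fell. Tested genes that could not be placed may lie closer. Over all tested genes 6.64% rose and 6.82% fell. The sulfatase gene STS, at 5.98, 6.62 and 5.74 CPM in mutants and 8.69, 7.79 and 9.08 CPM in wild types, fell 1.39-fold (edgeR adjusted p = 0.0155). The lipase-family gene PNPLA4 fell 1.67-fold (edgeR adjusted p = 0.0277) and DPCD rose 1.402-fold (edgeR adjusted p = 0.0303). Each of these 3 neighbour calls was lost when 1 of several libraries was left out, STS without wild-type replicate 1 or 3 or mutant replicate 1 or 3, PNPLA4 without wild-type replicate 1 or 2 or mutant replicate 1 or 3, and DPCD without wild-type replicate 2 or 3 or mutant replicate 1 or 2. The nearest placed gene to as3mt on the other side from DPCD, nt5c2b, was not called. It stood at 99.9, 103 and 111 CPM in mutants and 99.7, 100.2 and 104 CPM in wild types. Calls were not counted by chromosome, since only 65.9% of tested genes could be placed in that table.

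Some genes were at or near 0 counts in 1 genotype. Of genes with at least 5 CPM in every library of one untreated group and at most 3 counts in all of the other, 3 were found in mutants and 1 in wild types. A copy of GGACT, the gene of gamma-glutamylamine cyclotransferase (ENSDARG00000038248), had 323, 331 and 258 counts in mutants and 0 in each wild type, at least 286-fold higher taking 3 counts over the group as the floor. The unnamed gene ENSDARG00000104174 had 451, 374 and 336 counts in mutants and 0 in each wild type, at least 365-fold higher. For si:dkey-165e24.1 there were 840 counts over the mutants and 3 over the wild types, a ratio of 264 with a 95% interval of 89.97 to 1282 that covers counting error only. The gene si:dkeyp-1h4.8 showed the opposite pattern, with 0 counts in each mutant and 337, 239 and 197 counts in wild types, at least 273-fold lower in mutants. These 4 genes kept the same side in the iAs-treated libraries, which are other pools of larvae: GGACT (ENSDARG00000038248) had 510, 303 and 515 counts in treated mutants and 1, 0 and 0 in treated wild types, and si:dkeyp-1h4.8 had 0 in each treated mutant and 32, 38 and 30 in treated wild types. With the level lowered to 1 CPM, the same rule found 10 genes in mutants and 16 in wild types. Of these, 9 and 16 lay on the same side without overlap in the treated libraries. The share of all tested genes without overlap there was not computed, so these counts are a description only. With iAs, 22.5% of all tested genes were called higher and 27.9% lower in mutants.

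The largest rises were taken among called genes with an established symbol and at least 5 CPM in the higher genotype. The rule also asked for no overlap between the genotypes' libraries, so the gaps below are not separate evidence. These rises covered many functions. A second copy of GGACT (ENSDARG00000070581) stood at 4.89, 5.85 and 4.78 CPM in mutants, against 0.0279, 0 and 0 CPM in wild types. The actin gene actc1c, one of the cardiac-type muscle actins, stood at 22.7, 21.3 and 22.9 CPM in mutants, against 1.31, 0.851 and 1.078 CPM in wild types (log2 fold change 4.37, SE 0.809, adjusted p = 0.00128). Mutants were thus far above wild types in all untreated libraries, by 20.7-fold. With iAs, actc1c stood at 58.4, 1.33 and 45.5 CPM in treated mutants and 0.782, 0.610 and 0.915 CPM in treated wild types. The membrane protein gene ms4a17a.9, of a family found on blood cells, had 13.02, 7.74 and 14.6 CPM in mutants and 0.975, 1.16 and 0.731 CPM in wild types (log2 fold change 3.60, SE 0.238, adjusted p = 1.58e-08). The gene of the glycosylphosphatidylinositol anchor enzyme subunit, PIGP, had 9.92, 11.6 and 12.1 CPM in mutants and 1.39, 1.599 and 1.11 CPM in wild types (log2 fold change 3.01, SE 0.158, adjusted p = 8.3e-10). No library of one genotype reached the range of the other for either gene. The nuclear receptor gene NR0B2, also called SHP, which represses bile acid synthesis in mammals, had 20.2, 25.9 and 20.3 CPM in mutants and 6.32, 4.33 and 7.06 CPM in wild types (log2 fold change 1.92, SE 0.156, adjusted p = 2.23e-07). The urokinase gene PLAU rose 4.61-fold, the methionine sulfoxide reductase gene msrab 4.29-fold and the dehydrogenase-family gene SDR42E2 4.28-fold. SERF2 (ENSDARG00000075881) rose 3.76-fold, the potassium channel gene kcnj11l 3.73-fold and the immune signalling gene themis2 3.62-fold.

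The largest falls, picked by the same rule and so without overlap, included secreted and surface proteins. The elastase-like gene ela2l, which makes a digestive protease of the pancreas, had 7.72, 9.47 and 7.57 CPM in mutants, against 324, 353 and 263 CPM in wild types. This was a 38.0-fold lower level (log2 fold change -5.25, SE 0.176, adjusted p = 1.7e-12), with all 3 mutants near the bottom of the scale. The C-reactive protein gene crp5, of the pentraxin family, had 3.25, 4.56 and 4.07 CPM in mutants and 41.3, 40.3 and 41.7 CPM in wild types (log2 fold change -3.38, SE 0.114, adjusted p = 1.7e-12). The adhesion protein gene pcdh1g22, a clustered protocadherin, had 1.36, 1.43 and 1.70 CPM in mutants and 13.7, 15.3 and 14.1 CPM in wild types (log2 fold change -3.26, SE 0.146, adjusted p = 9.52e-11). For crp5 and pcdh1g22 the 6 libraries split cleanly by genotype. A copy of CCDC134 (ENSDARG00000103285) had 0.0252, 0.0275 and 0.0565 CPM in mutants and 9.83, 9.08 and 11.6 CPM in wild types (log2 fold change -8.01, SE 0.273, adjusted p = 1.7e-12). The chitinase gene chia.3 had 5.07, 3.29 and 4.94 CPM in mutants and 27.2, 22.0 and 28.7 CPM in wild types (log2 fold change -2.54, SE 0.197, adjusted p = 1.38e-07). The myosin heavy chain gene myhc4 had 34.2, 38.4 and 35.5 CPM in mutants and 130.3, 165 and 120.2 CPM in wild types (log2 fold change -1.94, SE 0.207, adjusted p = 5.03e-06). The genotypes stood apart for all 3. Further falls were those of the cadherin gene cdh29 by 4.60-fold, ms4a17a.11 by 3.23-fold, pcdh1g26 by 3.05-fold, the syncollin gene SYCN (ENSDARG00000090899) by 3.09-fold, PDK2 (ENSDARG00000059054), the gene of a pyruvate dehydrogenase kinase, by 3.05-fold, and the meprin gene MEP1B (ENSDARG00000037533) by 3.04-fold. DESeq2 did not call MEP1B (ENSDARG00000037533, adjusted p = 0.091).

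Among abundant genes, of at least 100 CPM over the untreated libraries, the changes were smaller, apart from the 38.0-fold fall of ela2l given above. Those named were again picked among called genes without overlap. The gene of the high-density lipoprotein protein, apoa1a, had 870.4, 1093 and 979 CPM in mutants and 661, 536 and 643 CPM in wild types (log2 fold change 0.68, SE 0.102, adjusted p = 0.000195). All mutants lay above all wild types. The transcription factor gene CEBPD had 97.8, 126 and 174 CPM in mutants and 74.0, 82.9 and 94.9 CPM in wild types (log2 fold change 0.66, SE 0.145, adjusted p = 0.005), with a gap between the genotypes that was small beside the spread among mutants. PPP1R13B (ENSDARG00000009142), a member of the p53-binding ASPP family, rose 1.63-fold. In the other direction, the prostaglandin D synthase gene ptgdsb.1 had 65.3, 65.1 and 84.7 CPM in mutants and 152, 156 and 171 CPM in wild types (log2 fold change -1.15, SE 0.121, adjusted p = 4.07e-06), clearly separated. The other abundant genes of this kind belong to the groups described next.

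**Figure D2:**
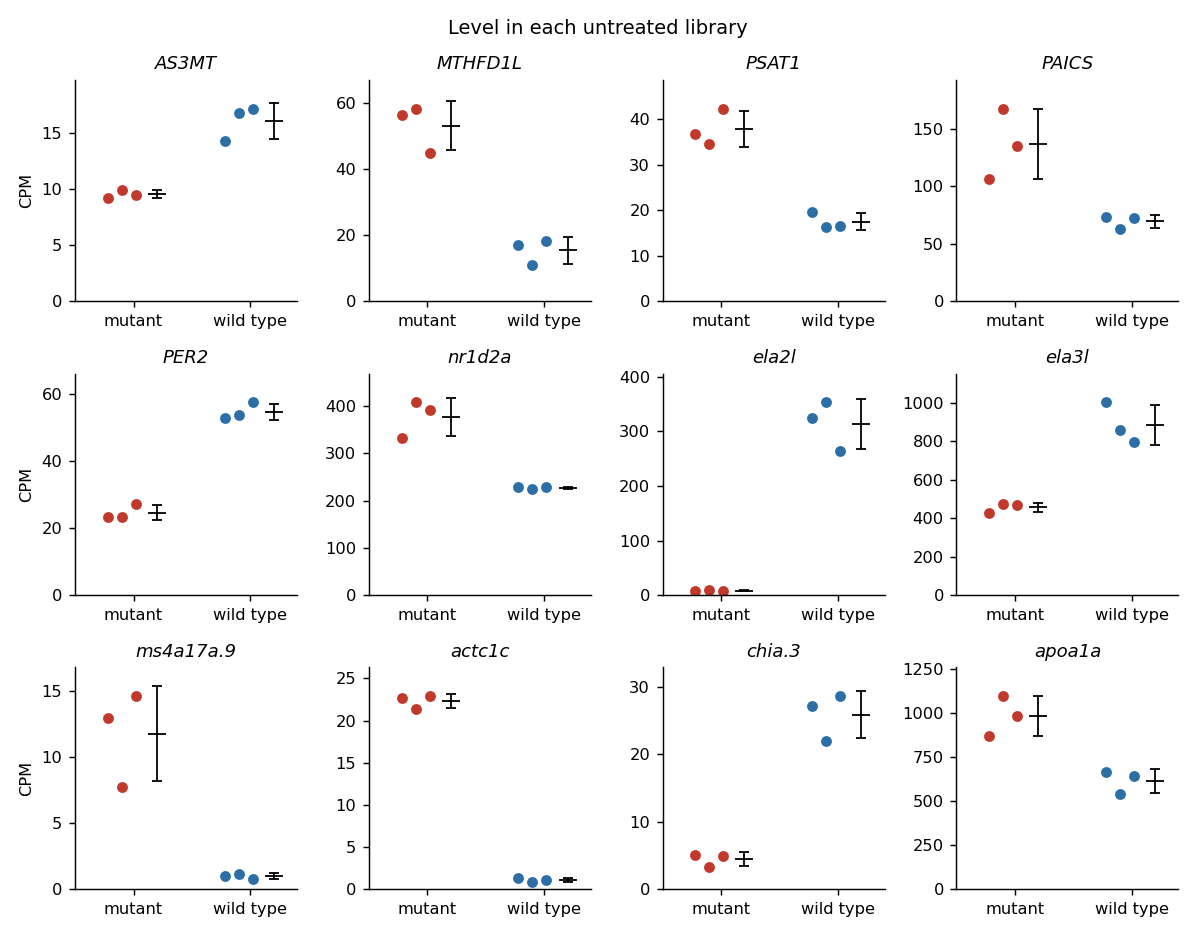
Level of 12 named genes in each untreated library, in CPM from 0, with mutants (red) to the left of wild types (blue) and black marks for the mean and SD of 3 libraries. In each panel the libraries of the genotypes do not overlap, which the naming rule asked of several of these genes. In mutants as3mt lies between 9.21 and 9.91 CPM and ela2l between 7.57 and 9.47 CPM.

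Genes that move or conjugate arsenic changed in both directions. Of 29 genes of this list, 6 rose (20.7%) and 6 fell (20.7%), beside 6.64% and 6.82% of all tested genes. The mutated gene as3mt is itself a member and is among the 6 falls. The median log2 fold change of the list was 0.05. The aquaglyceroporin gene aqp7, whose mammalian protein lets arsenite pass, had 11.5, 10.7 and 10.8 CPM in mutants and 5.26, 5.13 and 5.43 CPM in wild types (log2 fold change 1.06, SE 0.118, adjusted p = 7.49e-06). The phosphate transporter gene slc34a2b, of a family that also carries arsenate, had 11.6, 16.4 and 12.2 CPM in mutants and 7.94, 8.05 and 6.50 CPM in wild types (log2 fold change 0.83, SE 0.130, adjusted p = 0.000281). Both lay higher in every mutant library. The omega-class glutathione transferase genes gsto2 and gsto1, whose human forms reduce methylated arsenic, rose by 0.59 and 0.40 on the log2 scale. The purine nucleoside phosphorylase genes pnp6 and pnp4b, whose mammalian form reduces arsenate, changed by -0.79 and -0.47. Of the efflux pump genes, ABCB4 changed by -0.30, abcb5 by -0.34 and ABCC5 by -0.25. Leaving out wild-type replicate 2 brought the rises in this list to 3.

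Genes of the methionine and folate cycles, which supply the methyl group, also split. Of 43 genes, 7 rose (16.3%) and 9 fell (20.9%), with a median of -0.01, beside 6.64% higher and 6.82% lower over all tested genes. The mitochondrial formate producer MTHFD1L had 56.4, 58.3 and 44.7 CPM in mutants and 17.02, 10.9 and 18.4 CPM in wild types (log2 fold change 1.79, SE 0.158, adjusted p = 6.04e-07), and every mutant held more than 2-fold the level of every wild type. A copy of MAT2A, which makes S-adenosylmethionine outside the liver in mammals (ENSDARG00000037121), had 35.1, 28.7 and 30.6 CPM in mutants and 85.7, 81.9 and 80.01 CPM in wild types (log2 fold change -1.39, SE 0.0860, adjusted p = 8.46e-09). The cystathionine synthase gene CBS fell by 0.60 on the log2 scale and its second copy cbsb by 0.37. The liver form MAT1A, at 215, 228 and 213 CPM in mutants and 243, 228 and 252 CPM in wild types, was not called (edgeR adjusted p = 0.394). The homocysteine hydrolase gene AHCY, at 696, 743 and 758 CPM in mutants and 685, 642 and 709 CPM in wild types, was not called either (edgeR adjusted p = 0.269). The genotypes lay close for both. Smaller rises were those of BHMT by 0.43, MTR by 0.38 and GNMT by 0.28 on the log2 scale, genes that remake methionine or use up S-adenosylmethionine. Each of these 3 calls was lost without wild-type replicate 2; BHMT and GNMT also lost it without mutant replicate 2, GNMT without mutant replicate 3 and MTR without mutant replicate 1. The rises in the list numbered 3 without wild-type replicate 2 or without mutant replicate 2, and 4 without mutant replicate 1.

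Several genes of serine and purine synthesis, which draw on or feed the folate cycle, rose in mutants; they belong to the lists of the integrated stress response and of pigment cells and were set together after their values were seen. The phosphoserine aminotransferase gene PSAT1 had 36.7, 34.6 and 42.3 CPM in mutants and 19.6, 16.3 and 16.5 CPM in wild types (log2 fold change 1.12, SE 0.106, adjusted p = 1.28e-06). The phosphoglycerate dehydrogenase gene PHGDH had 69.0, 59.08 and 61.1 CPM in mutants and 33.8, 31.1 and 33.5 CPM in wild types (log2 fold change 0.94, SE 0.0746, adjusted p = 1.62e-07). They were 2.17-fold and 1.92-fold higher in mutants with no overlap. The purine synthesis gene PAICS had 106, 167 and 135 CPM in mutants and 73.5, 62.7 and 72.0 CPM in wild types (log2 fold change 0.97, SE 0.121, adjusted p = 2.61e-05), where mutants spread more widely. ATIC rose by 0.70 on the log2 scale, GMPS by 0.40 and GART by 0.40. These purine genes were listed with pigment cell genes, since purines build the reflecting pigment of fish. Of the 35 genes of that list 10 rose (28.6%) and 2 fell (5.71%, median 0.14), beside 6.64% and 6.82% of all tested genes. Other members that rose were KIT, by 0.33, and TYRP1 (ENSDARG00000056151), by 0.38. The count of rises was 6 without wild-type replicate 3 or without mutant replicate 1 or 2.

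PSAT1 and PHGDH belong to the list of the integrated stress response, whose genes are switched on by the transcription factor ATF4 when amino acids are short or proteins misfold. Of its 33 genes, 10 rose (30.3%) and 0 fell, beside 6.64% and 6.82% of all tested genes. Above 0 lay 28 members of the list (median 0.16). None fell at an unadjusted p under 0.05 either, and DESeq2 called 11 higher and 0 lower. Asparagine synthetase, ASNS, rose by 0.49 on the log2 scale, the glutathione-degrading enzyme gene CHAC1 by 0.39 and the transfer RNA ligase gene NARS1 by 0.50. The rises numbered 5 without wild-type replicate 1. ATF3, a further stress factor of the list, was at 8.43, 8.13 and 8.79 CPM in mutants and 6.38, 8.25 and 9.74 CPM in wild types, with overlap and no call (edgeR adjusted p = 0.897).

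Lists of arsenic, oxidative and metal stress genes gave calls in both directions without iAs. Their shares ran from 4.88 to 12.5% higher and from 7.32 to 12.5% lower, beside 6.64% and 6.82% of all tested genes. The Nrf2 and glutathione list had 7 rises (12.5%) and 6 falls (10.7%) among 56 genes (median 0.04), against 6.64% and 6.82% of all tested genes, and its falls numbered 3 without wild-type replicate 2. The haem oxygenase gene HMOX1 had 11.2, 9.31 and 12.5 CPM in mutants and 10.6, 10.7 and 15.3 CPM in wild types and was not called (edgeR adjusted p = 0.549). The metallothionein gene MT1X had 58.7, 52.2 and 68.6 CPM in mutants and 69.6, 67.1 and 68.7 CPM in wild types and was not called (edgeR adjusted p = 0.184). The genotypes overlapped for both. The inducible heat shock gene hsp70l had 3.08, 4.20 and 2.91 CPM in mutants and 1.59, 1.99 and 2.26 CPM in wild types, without overlap. It was not called in the fit of all 12 libraries (SE 0.721 on the log2 scale, edgeR adjusted p = 0.524). It was called as higher when only the untreated libraries were fitted, so its baseline call depends on the fit. GCLM, for glutathione synthesis, and CYP1A1, a target of the aryl hydrocarbon receptor, were not called (edgeR adjusted p = 0.757 and 0.416). Members that fell were the peroxidase gene gpx4a by 0.71 and the thioredoxin gene TXN by 0.49 on the log2 scale, while its relative GPX4 rose by 0.40. Among cytosolic heat shock genes 2 of 41 rose (4.88%) and 3 fell (7.32%, median -0.01), with AHSA1 (ENSDARG00000028664) at 1.34 and hspb6 at -0.80. These heat shock shares lay close to the 6.64% and 6.82% of all tested genes. Of 32 metal and iron genes 4 rose (12.5%) and 4 fell (12.5%, median -0.01). The iron hormone gene hamp had 9.28, 8.07 and 9.52 CPM in mutants and 19.02, 17.9 and 20.0 CPM in wild types (log2 fold change -1.08, SE 0.214, adjusted p = 0.0022). The manganese and zinc transporter gene SLC30A10 rose by 0.75. The falls in that list numbered 2 without wild-type replicate 3 or mutant replicate 1 or 2. The endoplasmic reticulum folding list had 2 rises (6.25%) and 4 falls (12.5%) among 32 genes (median -0.04), led by selenos at -0.72 and P4HB at -0.38. The p53 and DNA damage list had 3 rises (9.4%) and 4 falls (12.5%) among 32 (median 0.10), led by DDB2 at -0.72 and RRM2B at -0.66. Its rises numbered 5 without mutant replicate 1, and its falls 2 without mutant replicate 1 or wild-type replicate 1.

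Digestive enzyme genes of the exocrine pancreas were lower in mutants as a group. Of 33 genes, 23 fell (69.7%) and 1 rose (3.03%), beside 6.82% and 6.64% of all tested genes. Against 0.0007 over all tested genes, the median log2 fold change of the 33 genes was -0.48. Their summed level was 11882, 11949 and 13440 CPM in mutants and 19830, 16632 and 16512 CPM in wild types, with the highest value in wild-type replicate 1. The protease gene ctrb.2 had 361, 351 and 429 CPM in mutants and 933, 774 and 814 CPM in wild types (log2 fold change -1.14, SE 0.0950, adjusted p = 2.88e-07). The elastase gene ela3l had 428, 473 and 468 CPM in mutants and 1001, 856 and 797 CPM in wild types (log2 fold change -0.96, SE 0.154, adjusted p = 0.000366). They were 2.21-fold and 1.94-fold lower in mutants without overlap. A copy of the carboxypeptidase gene CPA1 (ENSDARG00000030915) fell 1.88-fold. Amylase, amy2a, fell by 0.88 on the log2 scale and trypsinogen, prss1, by 0.40; the low-level gene sycn.1 fell by 2.28. The lipase gene CEL differed by copy: CEL (ENSDARG00000029822) had 123, 127 and 144 CPM in mutants and 93.5, 81.8 and 69.8 CPM in wild types (log2 fold change 0.68, SE 0.0997, adjusted p = 0.000138), whereas CEL (ENSDARG00000017490) changed by -0.37. The falls numbered 14 without wild-type replicate 1. Counts from whole larvae cannot tell fewer cells of a type from less RNA per cell. Of 30 endocrine hormone genes 0 were called in either direction by edgeR and 0 by DESeq2, and 1 was higher and 4 lower at an unadjusted p under 0.05. Their median log2 fold change was -0.15, with 22 of the 30 below 0. They summed to only 84.1 to 99.9 CPM in mutants and 90.2 to 96.8 CPM in wild types, so the lack of calls does not show equal levels.

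Genes of the eye's light response were also lower. Of 54 visual opsin and phototransduction genes, 23 fell (42.6%) and 1 rose (1.85%), beside 6.82% and 6.64% of all tested genes. Below 0 lay 45 of the 54 (median -0.26). Their summed level was 7499, 7809 and 7745 CPM in mutants and 9430, 9695 and 9475 CPM in wild types, a narrow spread within each genotype. The falls took in each step of the cascade: the short-wave opsin gene OPN1SW by 0.46 on the log2 scale, the cone transducin gene GNAT2 by 0.38, the cone phosphodiesterase gene PDE6C by 0.34, the arrestin gene ARR3 (ENSDARG00000056511) by 0.65, and the photoreceptor transcription factor gene NR2E3 by 0.45. A copy of the opsin kinase gene GRK7 (ENSDARG00000055534) had 2.75, 2.72 and 2.74 CPM in mutants and 5.15, 6.19 and 5.50 CPM in wild types (log2 fold change -1.04, SE 0.140, adjusted p = 6.23e-05). Few lens crystallin genes were called, with 2 rises (3.64%, crygm2e and crygm2f) and 0 falls among 55 genes and a median of 0.04. At an unadjusted p under 0.05, 5 crystallin genes were higher and 3 lower, and DESeq2 called 2 higher and 1 lower. The crygm2e call was lost without any 1 of 5 libraries (wild-type replicate 1 or 2, any mutant) and that of crygm2f without wild-type replicate 1 or 2 or mutant replicate 2.

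**Figure D3:**
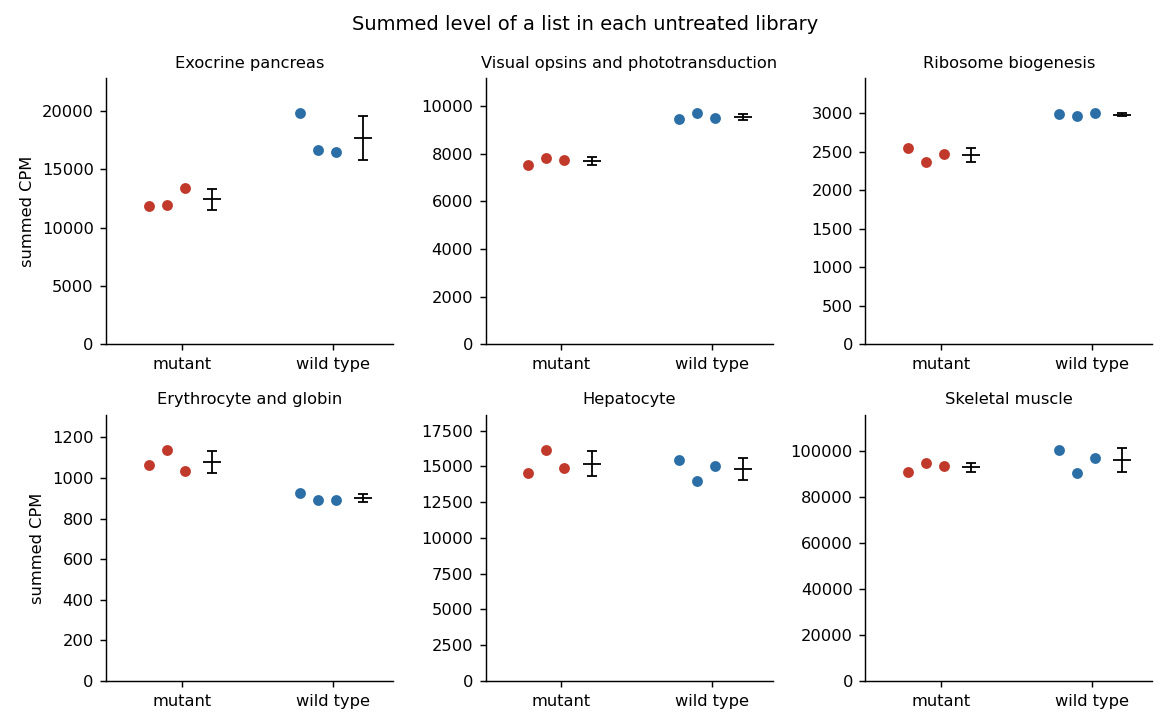
Summed level of 6 gene lists in each untreated library, in CPM from 0, with mutants (red) to the left of wild types (blue) and black marks for the mean and SD of 3 libraries. Pancreas, light response and ribosome biogenesis sums are lower and the erythrocyte sum higher in mutants without overlap, whereas the hepatocyte and skeletal muscle sums overlap.

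The most uniform group was ribosome biogenesis, the making of ribosomal RNA and its assembly in the nucleolus. Of 39 genes, 31 fell (79.5%) and 0 rose, beside 6.82% and 6.64% of all tested genes. All 39 had a log2 fold change below 0 (median -0.32). None was higher at an unadjusted p under 0.05, and DESeq2 called 31 lower and 0 higher. The summed level was 2549, 2367 and 2470 CPM in mutants and 2987, 2964 and 3004 CPM in wild types. The RNA polymerase I subunit gene POLR1A had 63.3, 57.8 and 53.01 CPM in mutants and 78.9, 85.9 and 79.0 CPM in wild types (log2 fold change -0.49, SE 0.0664, adjusted p = 7.09e-05), and POLR1B fell by 0.45 on the log2 scale. The small nucleolar protein gene NOP10 had 8.53, 10.0 and 8.11 CPM in mutants and 20.4, 16.5 and 17.6 CPM in wild types (log2 fold change -1.03, SE 0.111, adjusted p = 5.49e-06). Neither gene's mutant libraries overlapped its wild-type ones. The abundant nucleolar genes ncl and npm1a fell by 0.25 and 0.21, the ribosomal RNA methylation gene FBL by 0.21, NOP56 by 0.32 and NOP58 by 0.39. The falls ran from 21 without wild-type replicate 1 to 31 without mutant replicate 1. In the iAs-treated libraries 8 of the 39 genes were lower in mutants and 3 higher, which is below the 27.9% lower and 22.5% higher among all tested genes. Of the 31 genes that fell without iAs, 6 were lower again, beside 62.2% of all genes called lower without iAs.

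Clock and light-response genes moved in both directions. Of 48 genes, 16 fell (33.3%) and 6 rose (12.5%, median -0.06), beside 6.82% lower and 6.64% higher over all tested genes. The light-induced period gene PER2 had 23.3, 23.5 and 27.2 CPM in mutants and 52.8, 53.9 and 57.6 CPM in wild types (log2 fold change -1.15, SE 0.108, adjusted p = 1.2e-06), and every mutant held less than every wild type. Other falls were those of CRY1 (ENSDARG00000045768) by 0.70 on the log2 scale, PER3 by 0.52, BHLHE40 by 0.49, the photolyase-family gene cry5 by 0.61 and DDB2, for repair of light damage, by 0.72. The repressor gene nr1d2a, of the Rev-erb family, had 332, 408 and 391.6 CPM in mutants and 229, 224 and 228 CPM in wild types (log2 fold change 0.73, SE 0.0810, adjusted p = 7.25e-06). The related NR1D1, nr1d4b and nr1d4a rose by 0.49, 0.44 and 0.36, and rorcb by 1.03. The groups were taken at about the same age; the hour of day of each pool is not given in the sources used here, and its part in these values was not tested.

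Lists of cell cycle genes and of erythrocyte and globin genes leaned slightly higher in mutants. Of 46 cell cycle genes, 13 rose (28.3%) and 1 fell (2.17%, median 0.17), beside 6.64% and 6.82% of all tested genes. The member bub1 had 14.9, 15.98 and 14.7 CPM in mutants and 9.94, 11.5 and 11.6 CPM in wild types (log2 fold change 0.46, SE 0.0938, adjusted p = 0.00258). The cyclin gene CCNB1 rose by 0.40 on the log2 scale, CDK1 by 0.39 and the proliferation marker mki67 by 0.27, and CCND1 fell by 0.21. These calls leaned on single libraries: 3 rises were left without wild-type replicate 1 or without mutant replicate 2, 6 without wild-type replicate 3 and 8 without wild-type replicate 2 or mutant replicate 1. Of 34 erythrocyte and globin genes, 10 rose (29.4%) and 1 fell (2.94%, median 0.22). Their sum was 1062, 1139 and 1034 CPM in mutants and 925, 893 and 890 CPM in wild types. The transferrin receptor gene tfr1a had 30.2, 31.4 and 24.3 CPM in mutants and 17.02, 20.3 and 18.3 CPM in wild types (log2 fold change 0.63, SE 0.107, adjusted p = 0.00067), and the globin genes hbae3 and hbae1.2 rose by 0.37 and 0.35. The erythrocyte and globin rises numbered 5 without wild-type replicate 2 or without mutant replicate 2. They include the myoglobin gene mb, at 0.54, so they are not all genes of red blood cells. The gene tfr1a is also counted in the metal and iron list.

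**Figure D4:**
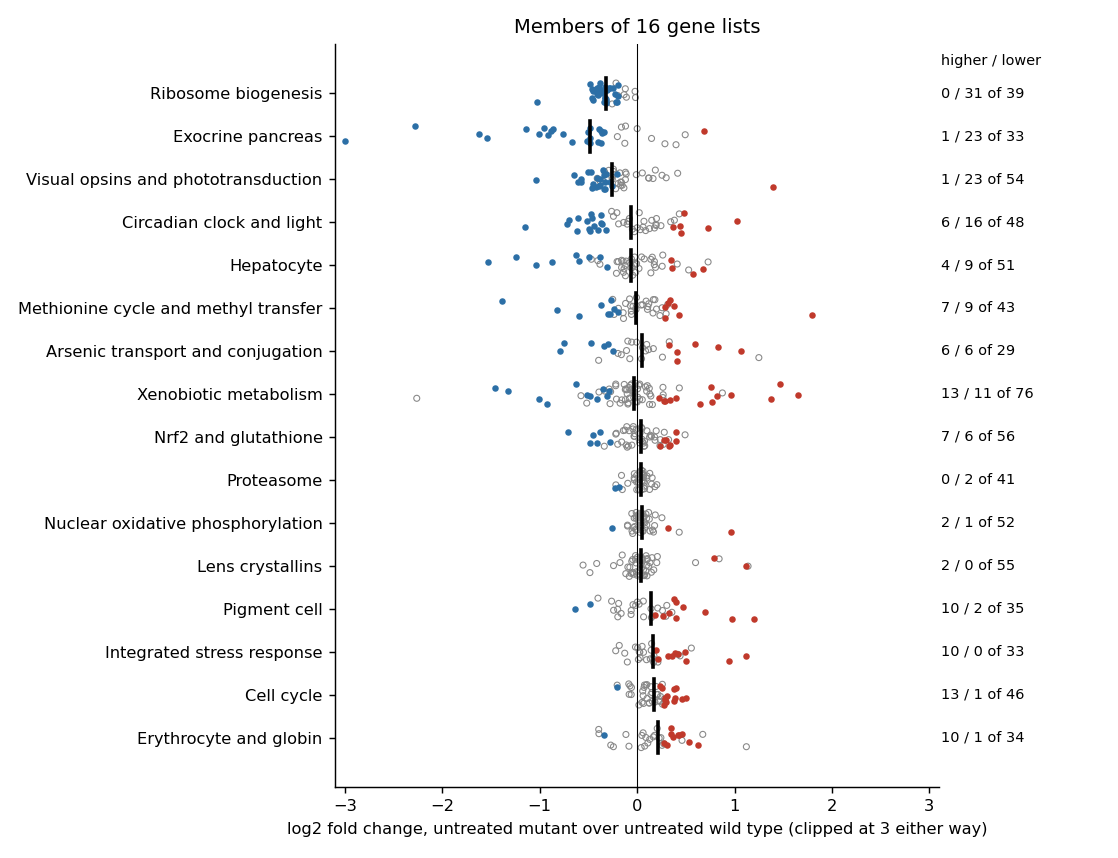
Log2 fold change of untreated mutant over untreated wild type for the tested members of 16 gene lists, clipped at 3 either way, with called members filled (red higher, blue lower), others open, and a black bar at the list's median. The numbers at the right count members called higher and lower; ribosome biogenesis genes all lie left of 0, and erythrocyte, cell cycle and stress response genes lean right.

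Liver and gut lists gave calls in both directions. Of 51 hepatocyte genes 4 rose (7.84%) and 9 fell (17.6%), against 6.64% and 6.82% of all tested genes (median -0.06), and the hepatocyte sums of the genotypes overlapped. The liver fatty acid binding protein gene fabp10a had 217, 249 and 274 CPM in mutants and 360.5, 315 and 304 CPM in wild types, without overlap, but was not called (log2 fold change -0.40, SE 0.182, edgeR adjusted p = 0.165). It was called when only the untreated libraries were fitted. The fetuin gene ahsg2 had 12.2, 10.103 and 15.5 CPM in mutants and 32.1, 27.7 and 30.0 CPM in wild types (log2 fold change -1.25, SE 0.155, adjusted p = 2.57e-05), and the apolipoprotein gene apoa4a fell by 1.04 on the log2 scale. The rises numbered 1 without wild-type replicate 1 or 2 or mutant replicate 2, and the falls 5 without wild-type replicate 3. Of 44 enterocyte genes 5 rose (11.4%) and 6 fell (13.6%, median -0.02), among them SLC5A1, for sodium and glucose uptake, at -0.36 and FABP2 at 0.27. The enterocyte rises numbered 2 without wild-type replicate 2 and 3 without wild-type replicate 3 or mutant replicate 1, and the falls 3 without wild-type replicate 1 or mutant replicate 2. Of 42 cholesterol and fatty acid synthesis genes 3 rose (7.14%) and 5 fell (11.9%, median -0.15). MSMO1 and HMGCS1, at -0.82 and -0.56, overlapped between genotypes and were not called by DESeq2 (adjusted p = 0.0638 and 0.0807). Both calls were also lost without wild-type replicate 2 or 3 or mutant replicate 2 or 3. The falls in that list numbered 2 without wild-type replicate 2 or 3 or mutant replicate 2, 3 without mutant replicate 3 and 11 without mutant replicate 1, and the rises 1 without any library but mutant replicate 2. Of 41 genes of fatty acid oxidation and ketones 3 rose (7.32%) and 3 fell (7.32%, median 0.02), with UCP1 at -0.46. The rises in this list numbered 1 without wild-type replicate 2 or mutant replicate 2. Among 41 gluconeogenesis genes and glucocorticoid targets 6 rose (14.6%) and 2 fell (4.88%, median 0.14). That count of rises was 3 without wild-type replicate 1 or 2 or mutant replicate 2 or 3. FKBP5, a glucocorticoid-induced gene in mammals, was at 0.56. HSD11B2, which inactivates cortisol, had 51.7, 80.8 and 66.9 CPM in mutants and 33.6, 40.7 and 33.6 CPM in wild types (log2 fold change 0.88, SE 0.147, adjusted p = 0.000497). Of 16 vitellogenin and estrogen response genes 1 rose (6.25%), vtg7 by 2.51, and 2 fell (12.5%), among them the lipoprotein lipase gene LPL (ENSDARG00000087697) by 0.38.

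Xenobiotic enzyme genes gave many calls in both directions. Of 76 genes, 13 rose (17.1%) and 11 fell (14.5%, median -0.04), against 6.64% higher and 6.82% lower over all tested genes. The cytochrome P450 gene cyp2aa4 had 37.6, 46.0 and 41.7 CPM in mutants and 14.7, 10.98 and 14.3 CPM in wild types (log2 fold change 1.65, SE 0.142, adjusted p = 4.64e-07), and its relative cyp2aa9 rose 2.77-fold. The vitamin D hydroxylase gene CYP2R1 rose by 1.37 on the log2 scale, while the sulfotransferase gene sult1st3 fell by 1.45 and cyp2p7 by 1.32. The rises ran from 7 without mutant replicate 2 to 11 without mutant replicate 3, with 8 without wild-type replicate 3 or mutant replicate 1; the falls numbered 7 without wild-type replicate 2 or mutant replicate 1 or 2.

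Immune lists differed in their share of calls, beside 6.64% higher and 6.82% lower over all tested genes. Of 33 macrophage and neutrophil genes 4 rose (12.1%) and 0 fell (median 0.07), 3 being lower at an unadjusted p under 0.05 and 0 by DESeq2. Among the rises ms4a17a.9 led, and lgals9l1 followed at 0.65. Relatives of ms4a17a.9 outside this list went the other way, ms4a17a.11 at -1.69 and ms4a17a.8 at -0.77, both called lower. Of the 12 tested ms4a17a genes 4 rose and 2 fell, so the rise of ms4a17a.9 does not stand for its family. Of 33 acute inflammation genes 2 rose (6.06%), CEBPD and nfkbiab, and 0 fell (median 0.19), with 0 lower at an unadjusted p under 0.05 and 0 by DESeq2. The interferon list had 4 rises (14.3%) and 0 falls among 28 genes (median 0.16), with 2 lower at an unadjusted p under 0.05 and 0 by DESeq2. Its leading gene eif2ak2, for the kinase PKR that senses double-stranded RNA, had 6.41, 4.56 and 4.69 CPM in mutants and 1.89, 1.88 and 2.09 CPM in wild types (log2 fold change 1.42, SE 0.195, adjusted p = 7.32e-05), clearly apart. The calls of irf3 (1.01) and nfkbiab (0.27) were each lost without 5 of the 6 libraries, irf3 keeping its call without mutant replicate 1 and nfkbiab without mutant replicate 1. Antigen presentation genes split, 4 up (15.4%) and 4 down (15.4%) of 26 (median 0.02). The class I gene mhc1zba rose by 0.57, while mhc1zka and mhc1zfa fell. Mutants held 0.0252, 0 and 0 CPM of mhc1zka, against 0.863, 1.39 and 0.765 CPM in wild types. For mhc1zfa the values were 0.101, 0.165 and 0.0283 CPM in mutants and 0.975, 1.03 and 1.04 CPM in wild types. Of 40 complement and acute-phase genes 2 rose (5%) and 4 fell (10%, median -0.07), with c8g at -1.31. The member c7b had 11, 9.97 and 11.8 CPM in mutants and 3.54, 3.97 and 3.30 CPM in wild types (log2 fold change 1.59, SE 0.168, adjusted p = 4.4e-06).

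The medians of several tissue and process lists lay near 0. In these lists 0 to 11.6% of members were called higher and 0 to 10.5% lower, beside 6.64% and 6.82% of all tested genes. Of 57 skeletal muscle genes 4 rose and 6 fell (median 0.00), myhc4 and DES (ENSDARG00000058656, -0.57) among the falls, and the rises numbered 2 without wild-type replicate 2 or mutant replicate 2. Of 55 neuron and glia genes 2 rose and 5 fell (median -0.03), with the glutamate transporter genes SLC17A7 (ENSDARG00000090106) at -0.53 and SLC1A2 (ENSDARG00000052138) at -0.44. Cardiac muscle had 1 rise, gata4 at 0.58, and 1 fall, CKMT2 (ENSDARG00000069615) at -0.39, among 24 genes (median -0.08). Cartilage and bone had 1 rise, HAPLN1 (ENSDARG00000068516) at 0.40, and 0 falls among 39 genes (median 0.05), with 1 lower at an unadjusted p under 0.05 and 0 by DESeq2. Epidermal keratin genes had 2 rises and 1 fall among 37 (median 0.01), with krt1-19d at -0.41; the rise of ANXA1, 0.38, was lost without wild-type replicate 2 or mutant replicate 3. Ionocyte genes had 5 rises and 3 falls among 43 (median 0.01), with the chloride cotransporter gene slc12a10.3 at 1.18 and the calcium hormone gene STC1 (ENSDARG00000058476) at -0.77, and the rises numbered 3 without wild-type replicate 2. Of 41 proteasome genes 0 rose and 2 fell (median 0.04), PSMD12 and PSMD8, whose calls of -0.23 and -0.18 were lost under most single-library omissions; 0 were higher at an unadjusted p under 0.05 and 0 by DESeq2. Hypoxia genes had 1 rise, IGFBP1 at 0.58, and 3 falls, SLC2A1 (ENSDARG00000001437, -0.58) among them, of 36 (median -0.05); IGFBP1 was not called by DESeq2 (adjusted p = 0.0596), nor without wild-type replicate 1 or 2 or mutant replicate 2 or 3.

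Energy and lysosome genes held a few clear changes. Among 13 mitochondrially encoded genes MT-ATP6, a subunit of ATP synthase, had 4494, 3859.8 and 4571 CPM in mutants and 3032, 2919 and 3081 CPM in wild types (log2 fold change 0.52, SE 0.0645, adjusted p = 2.68e-05), mt-atp8 was at 0.34 and MT-CO1 at -0.22 (median of the 13 genes -0.05). The mt-atp8 call was lost without wild-type replicate 2 or 3 or mutant replicate 1. Of 52 nuclear genes of oxidative phosphorylation 2 rose (3.85%) and 1 fell (1.92%, median 0.05), beside 6.64% and 6.82% of all tested genes. COX6A1 rose by 0.96 and cox6b1 by 0.32, a call lost for cox6b1 without wild-type replicate 2 or 3 or mutant replicate 3. Of 47 autophagy and lysosome genes 9 rose (19.1%) and 0 fell (median 0.01), with 2 lower at an unadjusted p under 0.05 and 1 by DESeq2. The cathepsin gene ctsl.1 had 195, 140.4 and 168 CPM in mutants and 109, 95.5 and 119.9 CPM in wild types (log2 fold change 0.63, SE 0.0971, adjusted p = 0.000228), and the lysosomal channel gene MCOLN1 (ENSDARG00000058848) rose by 0.51. The rises numbered 4 without wild-type replicate 2 or mutant replicate 1 or 2, and 5 without mutant replicate 3.

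The same genotype comparison was then taken in larvae given 1 mM iAs, in 6 libraries of other pools. These libraries share the fit and its estimate of the spread with the untreated comparison. With iAs, 5208 genes were higher (22.5%) and 6433 lower (27.9%) in treated mutants than in treated wild types. Of the 3110 genes called without iAs, 1845 were called in the same direction with iAs, which is 59.3% of the untreated calls and 15.8% of the treated ones; 301 were called in the opposite direction and 964 were not called. Among the 794 calls of 2-fold or more, 572 (72.0%) had the same direction and 23 the opposite. The difference between the comparisons was tested by an interaction term in edgeR. It was called for 1210 (38.9%) of the 3110 genes and for 188 (23.7%) of the 794. These genes were picked on the untreated difference, which enters the interaction. The share over all tested genes was not computed, so whether these shares are high was not tested. The as3mt transcript itself stood at 3.02, 3.31 and 3.51 CPM in treated mutants and 9.77, 9.73 and 9.93 CPM in treated wild types, a log2 fold change of -1.58, and its interaction was called (-0.83, edgeR adjusted p = 0.000368).

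The list members called without iAs were followed in the libraries with iAs. Of all genes called lower without iAs, 62.2% were lower again with iAs and 7.99% were higher. Of all genes called higher without iAs, 56.4% were higher again and 11.4% were lower. Of the 23 pancreas genes that fell without iAs, 21 were lower again and 2 were not called in treated mutants. Of the 23 light-response genes that fell, 22 were lower again and 1 was not called. Of the 13 cell cycle genes that rose without iAs, 10 were lower and 3 were not called in treated mutants, and of the 10 erythrocyte genes that rose, 3 were higher again, 6 were lower and 1 was not called. With iAs 28 of 33 pancreas genes, 46 of 54 light-response genes, 37 of 46 cell cycle genes and 23 of 34 erythrocyte genes were lower in mutants, beside 27.9% of all tested genes. For tfr1a the log2 fold change was -1.29 with iAs, against 0.63 without it, and the interaction was called (-1.92, edgeR adjusted p = 1.32e-07). NR0B2 and cyp2aa4 also changed sides, at -0.77 and -0.72 with iAs. Among stress genes without a call at baseline, some were called with iAs: HMOX1 at 1.13, MT1X at 1.04, hsp70l at 3.66, ATF3 at 2.44 and CYP1A1 at -0.82, each with a called interaction. GCLM, at -0.14, was called neither with iAs (edgeR adjusted p = 0.0666) nor in the interaction (edgeR adjusted p = 0.145).

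**Figure D5:**
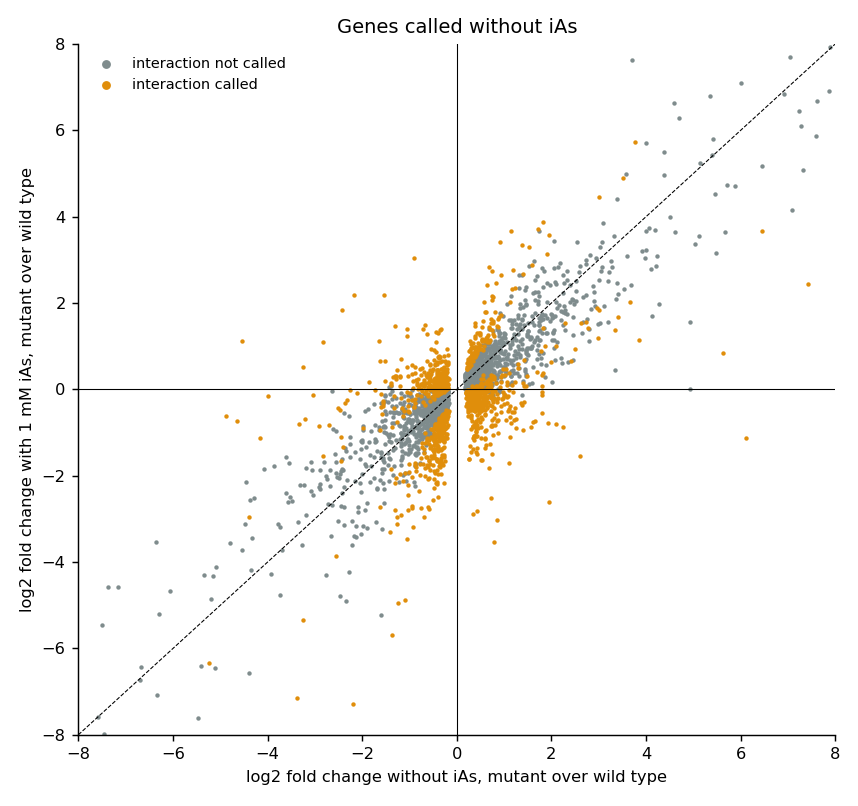
Log2 fold change of mutant over wild type with 1 mM iAs (y axis) against the same without iAs (x axis) for the 3110 genes called without iAs, orange where the interaction was called and grey where it was not. The dashed line marks equal changes; 32 genes lie beyond 8 on either log2 scale and are not drawn, and most points with large changes lie near the line.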

How the data were processed

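RNA was measured in 12 libraries of pooled whole larvae, 6 of them used for the main comparison. Per the labels' protocols, poly-A libraries took 100 ng of RNA each (integrity number over 7) and 12 cycles of PCR. The deposited files hold raw read counts per Ensembl gene ID, 1 file per library. The submitters' processing notes name FastQC 0.11.5, Trimmomatic 0.36 and the GRCz10 build; no source used here gives the aligner, the counter or its use of strand. How reads of near-identical or overlapping genes were shared out is thus unknown, which matters for GGACT, CEL, CPA1, pcdh1g, ms4a17a, cyp2aa and mhc1z genes. Symbols came from a table of gene IDs that named 26269 of 32105 IDs, many with the human form of the name; 1632 symbols stand on several IDs, which are printed with the ID.

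Genes were kept with filterByExpr (minimum count 10), scaled by TMM and fitted in edgeR 4.0.16 under R 4.3.3 (quasi-likelihood F-test, glmQLFTest) to 4 groups over all 12 libraries, with 8 residual degrees of freedom. The common biological coefficient of variation was 9.00%. Adjustment was by Benjamini and Hochberg across the 23096 tested genes. SE stands for a log2 fold change's standard error, worked out from its F value; levels are TMM-scaled CPM. Folds against 0 counts use a floor of 3 counts over the group, and floors and intervals cover counting error only. Library totals of at least 28909467 counts make counting error small beside the spread between libraries for well-expressed genes. Alternatives were DESeq2 1.42.0, its size factors, library size alone, other filters, only the libraries compared, a test against a 2-fold change, a replicate block and each library left out. On simulated counts (22849 genes) the test found 61% of genes set to a log2 change of 0.5, 95.5% of those at 1 and 100% of those at 2, with 3.75% false calls. Changes were set in 200 genes per size, all above a minimum mean count, so genes of low level are not covered. The counts were drawn from the fit's dispersions without its gene-by-gene quasi-likelihood spread, and the other groups had equal means. These rates therefore need not hold for the real libraries. Replicates were not duplicates of each other: every pair differed by more than sampling noise, with a chi-square over degrees of freedom of at least 5.18 in genes with 20 or more counts.

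The 40 gene lists hold 1634 entries, of which 1549 matched a gene, 1217 by exact symbol. Lists, members and the rule for named genes were chosen with earlier results of these data known. The rule named 127 genes, as3mt being the first. It took the 12 largest rises and 12 largest falls with an established symbol, at least 5 CPM and no overlap. Of such genes with at least 100 CPM and no overlap it took 6 each way. From each list it took up to 2 called members with at least 1 CPM. Added were the 5 placed tested genes on each side of as3mt in the RefSeq order (GRCz12tu, used for order only). The last were 12 genes of stress and the methionine cycle. Other genes in the text are further called members of the lists, chosen after their values were seen. Some genes named by the rule are not reported here. No sequences are shown.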

Additional observations from a re-analysis of the deposited data

Results flagged for a closer look

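For 68 of the 127 named genes the genotype difference differed between untreated and iAs-treated larvae by the edgeR interaction test (adjusted p from 1.04e-07 to 0.0473), of which 66 are given here. The values below are log2 differences, treated mutant over treated wild type minus untreated mutant over untreated wild type, so that a positive one means relatively more in mutants with iAs. Each rests on 3 libraries per group. Of the 127 named genes, 111 were called without iAs, most of them picked for that difference, which also enters the interaction. The share of interaction calls over all tested genes was not computed, so the 68 are a description only.

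Called in opposite directions without and with iAs were 12 of these genes. Those higher in untreated mutants and lower in treated ones were SDR42E2 at -2.91, NR0B2 at -2.69, cyp2aa4 at -2.38, tfr1a at -1.92, PSAT1 at -1.50, MTR at -1.20, bub1 at -0.88, CDC20 at -0.87 and GNMT at -0.47. Those lower in untreated mutants and higher in treated ones were DES (ENSDARG00000058656) at 1.13, STC1 (ENSDARG00000058476) at 1.24 and apoa4a at 2.27.

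Called on the same side, but farther from 0 with iAs, were 21 genes. Pancreas and gut genes among them were ela3l at -1.75, chia.3 at -1.31, ela2l at -1.09, SYCN (ENSDARG00000090899) at -1.09 and ctrb.2 at -0.99. Secreted and surface protein genes were cdh29 at -5.08, crp5 at -3.76, ahsg2 at -3.69, c8g at -0.86 and c7b at 1.28. Treated mutants held only 0.0539, 0.0283 and 0.219 CPM of cdh29 and 0.027, 0.0283 and 0.0626 CPM of crp5. For ahsg2 they held 0.027, 0.198 and 0.0626 CPM. With so few counts, the sizes given for cdh29, crp5 and ahsg2 are imprecise. The others were GRK7 (ENSDARG00000055534) at -1.77, SLC2A1 (ENSDARG00000001437) at -1.46, STS at -1.41, SLC1A2 (ENSDARG00000052138) at -0.94, AS3MT at -0.83, CKMT2 (ENSDARG00000069615) at -0.82, MAT2A (ENSDARG00000037121) at -0.46, cox6b1 at 0.38, ANXA1 at 0.40, ctsl.1 at 0.47 and SERF2 (ENSDARG00000075881) at 1.22. On the same side but nearer to 0 with iAs were 7 genes: PIGP at -1.18, msrab at -1.10, themis2 at -0.85, PAICS at -0.49, MT-ATP6 at -0.28, CPA1 (ENSDARG00000030915) at 0.49 and PER2 at 0.72.

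Called without iAs but not with it were 17 genes: SPR (ENSDARG00000058553) at -1.91, MTHFD1L at -1.71, cyp2aa9 at -1.39, crygm2f at -1.22, aqp7 at -0.90, CEL (ENSDARG00000029822) at -0.83, PHGDH at -0.77, lgals9l1 at -0.69, gata4 at -0.61, SLC30A10 at -0.50, mt-atp8 at -0.37, POLR1A at 0.39, LPL (ENSDARG00000087697) at 0.40, krt1-19d at 0.40, UCP1 at 0.47, MSMO1 at 1.05 and PDK2 (ENSDARG00000059054) at 1.198. Not called without iAs were 9 genes: fabp10a at -2.71, lbx1b at -1.33, nlgn4xa at -0.95, CYP1A1 at -0.72, AHCY at -0.30, MT1X at 1.23, HMOX1 at 1.28, ATF3 at 2.37 and hsp70l at 2.85.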

How the results depend on the processing

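The 1534 higher and 1576 lower calls without iAs stayed within 1.5 times of these counts under DESeq2 (1559 and 1887), DESeq2 size factors (1418 and 1700), library size alone (1727 and 1326), no filter (1580 and 1597), a mean of at least 50 counts (1269 and 1365) and a fit of only the 6 untreated libraries (1718 and 1812). Tested against a 2-fold change, 131 were higher and 117 lower, as3mt at -0.75 was no longer called (adjusted p = 1), 464 were higher and 614 lower with iAs, and 186 were called the same way in both comparisons, since that test asks for a larger change. With 1 library left out, higher calls ran from 1022 to 1386 and lower ones from 1075 to 1385 without iAs, from 4502 to 5417 and from 5723 to 5894 with iAs, same-way calls from 1334 to 1938, and as3mt from -0.83 to -0.70, always called; the lone group of 2 is assumed to vary like the others. The lowest count, 1022, came without mutant replicate 2. Of the named genes called without iAs, 0 changed direction under these alternatives; with 1 library left out, 3 uncalled ones near 0 did, slc2a15b running from -0.155 to 0.0628 (without wild-type replicate 2), HMOX1 from -0.239 to 0.0459 (without wild-type replicate 3) and ATF3 from -0.0840 (without wild-type replicate 1) to 0.204. Calls were gained by hsp70l and fabp10a with only the libraries compared (edgeR adjusted p = 0.014 and 0.0035) and by MT1X without mutant replicate 3 (edgeR adjusted p = 0.0279). DESeq2 lost the calls of MEP1B (ENSDARG00000037533), MSMO1, HMGCS1 and IGFBP1; nfkbiab lost its call with DESeq2 size factors or a mean of 50 counts, PSMD12 and PSMD8 with library size alone, PSMD8 with no filter, and DPCD with only the libraries compared. The single call of CDC20 was lost without wild-type replicate 1. Replicate numbers, which may or may not mark clutches, did not pair the untreated samples: deviations of same-numbered libraries correlated by -0.01, -0.00 and -0.01. With a replicate block 1448 genes were higher and 1497 lower without iAs, and 0 of 126 named genes other than as3mt changed call. Leaving out 1 library moved 24 of 44 list counts of 3 or more by over 1.5 times, as given beside them, 20 of 25 counts of 1 or 2, and 4 of 11 counts of 0.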

Other observations

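Some gene families had members called in opposite directions, while others had calls in a single direction or none. The families below were picked after their values were seen, so their counts are descriptions only. Over all tested genes 6.64% were called higher and 6.82% lower in untreated mutants. Of 18 clustered protocadherin genes of the pcdh1g group, neuronal adhesion genes, 6 fell and 2 rose in untreated mutants. Besides pcdh1g22, pcdh1gb9 averaged 1.41 ± 0.3003 CPM in mutants and 3.78 ± 0.341 CPM in wild types, while pcdh1gc6 averaged 14.2 ± 0.815 CPM in mutants and 10.5 ± 0.409 CPM in wild types (SD, n = 3 each). Of the 14 genes of the pcdh2 group 0 were called by edgeR, and 0 passed an unadjusted p under 0.05. The ms4a17a genes, 12 of them tested, had 4 rises and 2 falls, from 3.60 for ms4a17a.9 to -1.69 for ms4a17a.11 on the log2 scale. The cyp2aa genes had 4 rises and 0 falls among 9, with cyp2aa3 at 1.12 and cyp2aa8 at 0.77 beside those named above. Of 19 sulfotransferase genes 6 fell and 0 rose, with SULT4A1, the form found in brain, averaging 40.2 ± 0.961 CPM in mutants and 54.3 ± 3.17 CPM in wild types. Of 113 numbered zinc finger genes (znf1000 and above) 21 rose and 6 fell, mostly at low level. In znf1019 mutants averaged 2.69 ± 0.774 CPM and wild types 0.173 ± 0.105 CPM, and in znf1177 mutants averaged 0.0357 ± 0.0310 CPM and wild types 0.590 ± 0.197 CPM.

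Of 33 DEAD-box helicase genes 12 fell and 1 rose (median -0.17), among them the ribosome assembly helicases DDX18 at -0.32, ddx10 at -0.35 and DDX52 at -0.50, and the germ cell gene DDX4, known as vasa, at -1.57. Of 18 subunit genes of RNA polymerases I and III 9 fell and 0 rose (median -0.28). Without iAs 6.82% of all tested genes fell and 6.64% rose. Both families were likewise picked after their values were seen. Several of these polymerase genes are also in the ribosome biogenesis list, so the counts are not separate. With iAs, 9 helicase genes and 10 polymerase genes were lower in mutants, and 4 and 1 higher, beside 27.9% of all tested genes lower and 22.5% higher.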
